A study of Homo sapiens with 8 samples.

Results

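The transforming growth factor beta (TGF-beta) ligands, their receptors, LRRC32 and genes of the latent TGF-beta binding protein (LTBP) family were followed in 2 human neuroblastoma cell lines. The members were TGFB1, TGFB2 and TGFB3 (ligands), TGFBR1, TGFBR2 and TGFBR3 (receptors), LTBP1 and LTBP2 (latent TGF-beta binding proteins by name) and LRRC32 (also called GARP, a membrane protein that holds latent TGF-beta at the cell surface). Whether LTBP2 holds latent TGF-beta in these cells was not tested. They were chosen by gene symbol, which gave 9 genes with 12 probes, out of 31426 gene symbols and 47322 probes on the array. The set was put together because LRRC32 was lost in SH-EP2 cells with a TRPM7 shRNA, so that the values of the 9 genes in that comparison are a description and were not tested, and the same holds for the level of LRRC32 between the cell lines.

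The arrays were of the Illumina HumanHT-12 v4 type and came from SH-SY5Y, a neuroblastic line, and from SH-EP2, an epithelial-like line. Each line carried either a lentiviral shRNA against TRPM7, an ion channel with a kinase domain, or a scrambled control shRNA, with 2 arrays in each of the 4 groups. All 4 groups were stably transduced and puromycin selected, so the control cells share the vector and the selection. A single TRPM7 shRNA was used on the arrays, and it is not stated whether the duplicates are separate cultures, so that p-values measure the spread between these arrays, which may be technical.

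TGF-beta is secreted in a latent form, folded inside its own propeptide and tethered to some of the LTBPs in the matrix or to LRRC32 at the cell surface. Integrins and proteases release the ligand, which binds the type II receptor TGFBR2. The type II receptor then phosphorylates the type I receptor TGFBR1, which activates SMAD2 and SMAD3. TGFBR3 (betaglycan) is a coreceptor that presents ligand, TGFB2 in particular, to TGFBR2. In many cell types the pathway is known for inducing extracellular matrix, contractile genes and the mesenchymal transcription factor SNAI2.

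Median signals of the 8 arrays lay between 104.7 and 119.9, and 40.8% to 44.2% of the probes were detected, that is, had a detection p under 0.05. TRPM7 itself was measured by 1 probe that no array detected, so that no array shows how far TRPM7 was reduced. The paper measured TRPM7 RNA in both lines by quantitative PCR, a reading that is not part of these data. The lines differed at most noradrenergic and mesenchymal markers, and no epithelial markers were read. Of 8 noradrenergic neuroblastoma genes 7 were lower in SH-EP2 than in SH-SY5Y control cells, with TH not detected on any array, and of 9 mesenchymal genes 7 were higher in SH-EP2 and 2, VIM and TWIST1, were lower. Signals below are log2 values after background correction and quantile normalization, and the change is TRPM7 shRNA minus control on that scale with its standard error (SE). Where a gene had more than 1 probe, the brightest was used. Adjusted p-values are from limma with Benjamini-Hochberg adjustment over all probes, two-sided, and a gene passed when its adjusted p was under 0.05.

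In SH-SY5Y cells, 2 of the 9 genes changed with the TRPM7 shRNA, and both fell: the ligand TGFB3 and the LTBP family member LTBP2. Over all genes, 2.58% passed in this comparison, with 1.57% lower and 1.01% higher. Among genes whose brighter group was detected on both arrays, 5.56% passed, and 4 of the 9 members were in that class. The median change of the 9 genes was -0.05, against 0.003 over all genes. In bulk RNA such as this, fewer cells that express a gene and less RNA per cell cannot be told apart. In SH-EP2 cells, where the 9 genes are described and not tested, TGFB2 and LRRC32 were lower on both TRPM7 shRNA arrays than on both control arrays. TGFBR2, TGFBR3 and LTBP2 were higher on both, with small changes for TGFBR3 (0.21, SE 0.33) and LTBP2 (0.09, SE 0.21). LTBP1 (lower) and TGFB1 (higher) also separated, but only 1 SH-EP2 array detected LTBP1 and none detected TGFB1. The share of all genes whose arrays separate in this way is not given here. The levels of all 9 genes on the 8 arrays are shown in the plot of members by group.

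**Figure D1:**
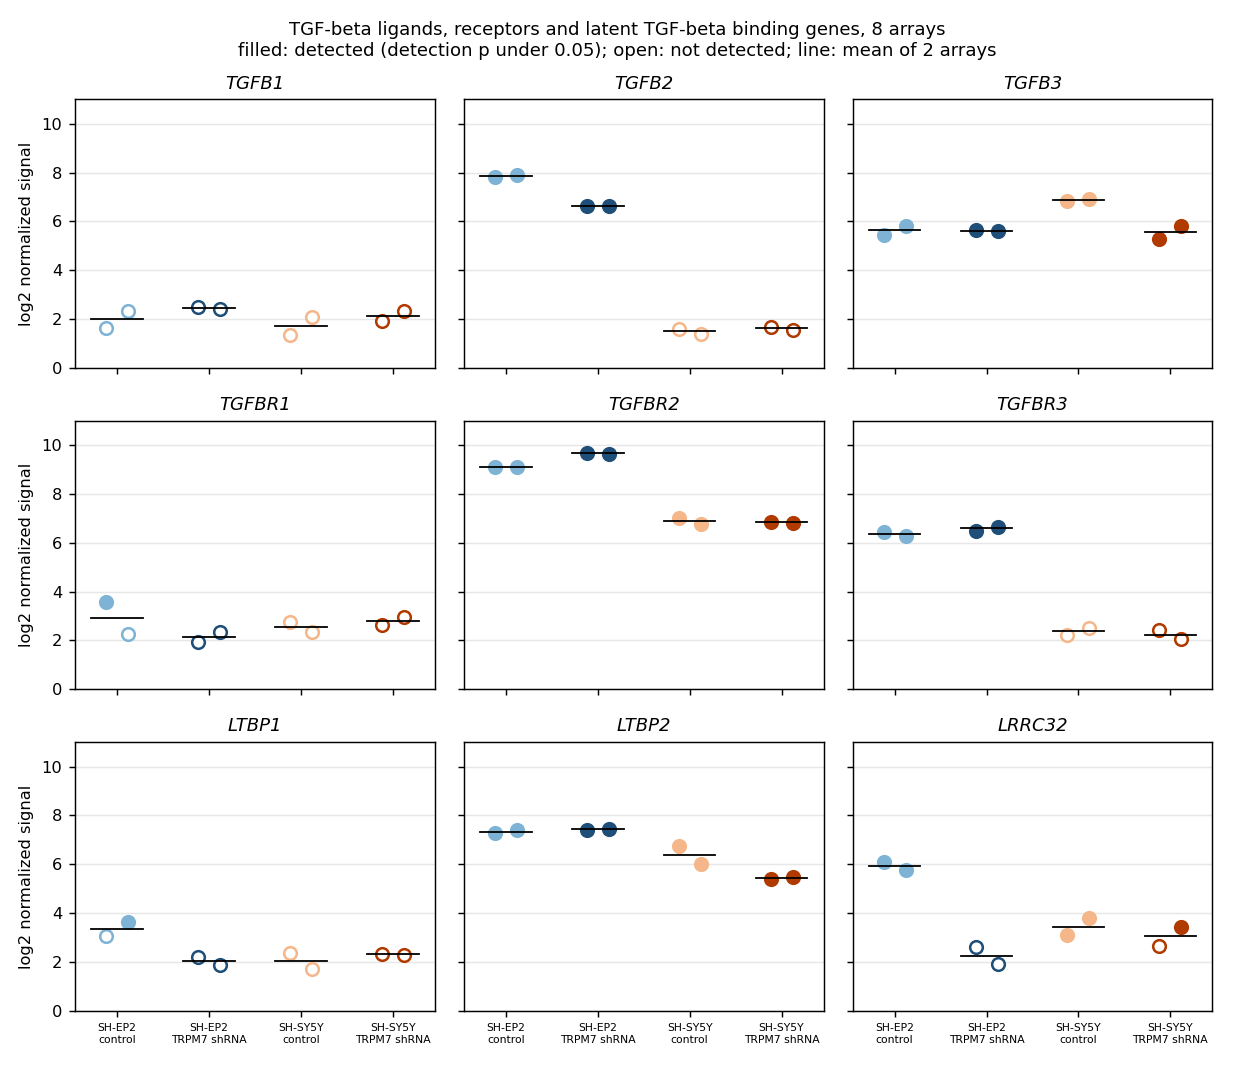
Log2 normalized signal (y axis) of the 9 genes on each of the 8 arrays, by cell line and shRNA (x axis), with the mean of 2 arrays as a line. Filled points were detected and open points were not. TGFB2, TGFBR2, TGFBR3, LTBP2 and LRRC32 were brightest in SH-EP2 cells, LRRC32 in the control cells alone, and TGFB3 was brightest in SH-SY5Y control cells.

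TGFB3 was the one ligand detected on all 8 arrays. Its log2 signals were 6.84 and 6.90 in SH-SY5Y control cells, and 5.28 and 5.82 in SH-SY5Y TRPM7 shRNA cells. In SH-EP2 cells they were 5.44 and 5.83 with the control shRNA and 5.65 and 5.59 with the TRPM7 shRNA. The SH-SY5Y control arrays therefore stood above all other arrays, and the 3 other groups overlapped. TGFB3 fell by 1.32 in SH-SY5Y cells (SE 0.23, 95% interval -1.80 to -0.84, 2.50-fold lower, adjusted p = 0.0019, limma). The change was -0.02 in SH-EP2 cells, and the difference between the 2 changes was 1.30 (SE 0.32), given without a test because it contains the SH-EP2 comparison. SH-EP2 control cells had less TGFB3 than SH-SY5Y control cells (log2 difference -1.23, adjusted p = 0.00021, limma). The probes with the pattern closest to TGFB3 over the 8 arrays were those of ZBTB16, RNF186 and LOC729852, with root mean square differences of 0.17, 0.18 and 0.20 between log2 signals centred on their means, among 23961 probes compared. ZBTB16 and RNF186 lay close to background, with group means from 1.92 to 3.20 and from 2.30 to 3.44, while LOC729852 was at 5.67 to 6.99. Without SH-SY5Y TRPM7 shRNA replicate 1 the fall was 1.05 and no longer passed (adjusted p = 0.0518, limma), nor did it with a spread estimate that takes no account of signal intensity (adjusted p = 0.164, limma).

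TGFB2 was detected on the 4 SH-EP2 arrays and on none of the SH-SY5Y arrays. Its log2 signals were 7.83 and 7.91 in SH-EP2 control cells and 6.64 on both TRPM7 shRNA arrays, where the bead signals before correction had gone from 348.9 and 333.5 to 214.2 and 213.5. Both TRPM7 shRNA arrays were below both control arrays, with a change of -1.23 (SE 0.32) that is described and not tested. This size depends on the background correction, since the change was -0.71 with no correction and -0.84 with normexp. In SH-SY5Y cells the signals were 1.60 and 1.37 (control) and 1.67 and 1.57 (TRPM7 shRNA), all undetected, so that no fold is given. TGFB2 was at least 26.3-fold higher in SH-EP2 than in SH-SY5Y control cells (adjusted p = 2.25e-12, limma). Such bounds set the mean of the brighter group against, on each array of the dim group, the higher of the probe's own signal and the lowest signal among detected probes. They hold for the background correction used and are not minima under the others. The log2 difference of TGFB2 between the lines was 6.38 as reported, 3.75 with neqc, 2.45 with normexp and 1.81 with no correction. TGFB1, the remaining ligand, had 1 probe that none of the 8 arrays detected, so nothing can be said here of its level.

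Of the receptors, TGFBR2 was detected on all 8 arrays. Its log2 signals in SH-EP2 cells were 9.09 and 9.09 with the control shRNA and 9.68 and 9.65 with the TRPM7 shRNA. In SH-SY5Y cells they were 7.02 and 6.77 (control) and 6.86 and 6.82 (TRPM7 shRNA). The SH-EP2 TRPM7 shRNA arrays were thus the highest and did not overlap their controls, whereas the 2 SH-SY5Y groups overlapped. The described change in SH-EP2 cells was 0.58 (SE 0.13, 1.49-fold), and a second probe detected on all arrays gave 0.93. In SH-SY5Y cells the change was -0.05 with a 95% interval from -0.32 to 0.21 (adjusted p = 0.939, limma). TGFBR2 was 4.58-fold higher in SH-EP2 than in SH-SY5Y control cells (log2 difference 2.19, adjusted p = 1.95e-11, limma), with 2.17 on the second probe. The remaining TGFBR2 probe was undetected on every array.

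The coreceptor TGFBR3 was detected in SH-EP2 cells alone, at 6.45 and 6.30 on the control arrays and 6.50 and 6.67 on the TRPM7 shRNA arrays. Its SH-SY5Y signals, 2.23 and 2.50 (control) and 2.43 and 2.06 (TRPM7 shRNA), were not detected. The gene was at least 9.32-fold higher in SH-EP2 than in SH-SY5Y control cells (adjusted p = 4.75e-09, limma). The log2 difference between the lines was 4.01 as reported and went from 0.82 to 4.17 over the alternatives. The described change of TGFBR3 with the TRPM7 shRNA in SH-EP2 cells was 0.21 (SE 0.33). The type I receptor TGFBR1 was detected on 1 of the 8 arrays, SH-EP2 control replicate 1 at 3.56, while the other 7 arrays lay between 1.92 and 2.96. No change of TGFBR1 can be read from these signals (SH-SY5Y change 0.24, adjusted p = 0.927, limma).

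LRRC32 had 1 probe. It was detected on both SH-EP2 control arrays, at log2 signals of 6.08 and 5.76, and on neither SH-EP2 TRPM7 shRNA array, at 2.59 and 1.90. In SH-SY5Y cells it was at 3.09 and 3.80 on the control arrays, both detected, and at 2.66 and 3.41 with the TRPM7 shRNA, where replicate 2 was detected. The SH-EP2 control arrays thus stood apart from the other 6. The bead signals before correction show how close to background this gene lay: 184.5 and 161.2 in SH-EP2 control cells, 118.5 and 108.7 in SH-EP2 TRPM7 shRNA cells, and between 114.2 and 125.9 in SH-SY5Y cells. The loss in SH-EP2 cells was at least 6.75-fold, and the fitted change was -3.68 (SE 0.46), which is not a measured size because the dim group was undetected. It was -0.67 on signals with no background correction, -0.99 with normexp and -1.90 with neqc. These are descriptions, as the gene was chosen for this difference. In SH-SY5Y cells, where it could be tested, the change was -0.41 (95% interval -1.36 to 0.55, adjusted p = 0.835, limma). The difference between the 2 changes was -3.27, also a description. The plot of changes shows the 9 genes in both lines.

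**Figure D2:**
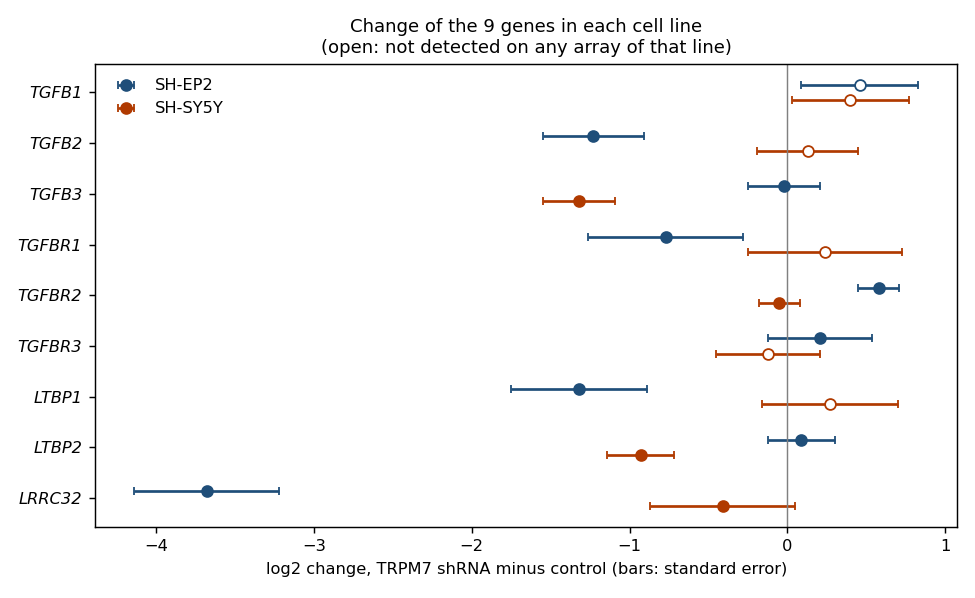
Log2 change with the TRPM7 shRNA (x axis, bars are SE) of the 9 genes (y axis) in SH-EP2 (blue) and SH-SY5Y cells (orange), with open points where no array of that line detected the gene. TGFB3 and LTBP2 are at -1.32 and -0.93 in SH-SY5Y cells and close to 0 in SH-EP2 cells, while in SH-EP2 cells TGFB2 is at -1.23, TGFBR2 at 0.58 and LRRC32 at -3.68.

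LRRC32 is best known from regulatory T cells, platelets and endothelial cells, so the markers of these cells were read on the same arrays. Of the 5 T cell genes CD3E and CD4 were undetected on all arrays, while CD3D was detected on the 4 SH-EP2 arrays alone (means of 4.74 with the control and 4.83 with the TRPM7 shRNA), PTPRC on 3 arrays and FOXP3 on 1. The summed log2 signal of the 5 T cell genes was 14.4 to 15.1 in SH-EP2 control cells and 14.1 to 15.3 in SH-EP2 TRPM7 shRNA cells. For the 5 platelet genes the sums were 17.8 to 18.2 and 18.7 on both arrays, with GP1BA and PPBP detected on all 8 arrays, ITGA2B on 1, and PF4 and GP9 on none. For the 5 endothelial genes they were 13.1 to 15.2 and 13.9 to 14, with PECAM1 detected on the 4 SH-EP2 arrays alone (means of 5.29 and 5.38), TIE1 on 1 array, and CDH5, VWF and KDR on none. CD3D, PTPRC and PECAM1 were also higher in SH-EP2 than in SH-SY5Y control cells (adjusted p = 3.8e-05, 0.00104 and 1.15e-06, limma), and the part of such cells or genes in the LRRC32 values was not tested. None of the 15 genes in these lists passed in SH-EP2 cells by limma, and 0 had an unadjusted p under 0.05. The genes with the pattern closest to LRRC32 over the 8 arrays, by the same measure, were C5orf46 (0.40), A2M (0.50) and C1orf198 (0.52). C1orf198 was measured well above background in all groups, with means of 10.15 in SH-EP2 control and 7.68 in SH-EP2 TRPM7 shRNA cells, against 8.07 and 8.12 in SH-SY5Y cells. The nearest neighbours of LRRC32 on chromosome 11 with a probe, by the order of genes in RefSeq GRCh38.p14, were EMSY, THAP12 and WNT11 on one side and GUCY2EP, TSKU and ACER3 on the other. None of these 6 passed in SH-EP2 cells by limma (adjusted p between 0.195 and 0.968, with 2 at an unadjusted p under 0.05). TSKU, detected throughout, was at 8.79 with the control and 9.11 with the TRPM7 shRNA. THAP12 (9.6 and 9.79) and ACER3 (5.78 and 5.12) were also detected throughout.

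Of the LTBP family members, LTBP2, a matrix protein of elastic microfibrils, was detected on all 8 arrays. Its log2 signals in SH-SY5Y cells were 6.74 and 5.99 with the control shRNA and 5.41 and 5.47 with the TRPM7 shRNA. The 2 groups did not overlap, although control replicate 2 was closer to the TRPM7 shRNA arrays than to control replicate 1. LTBP2 fell by 0.93 in SH-SY5Y cells (SE 0.21, 1.90-fold lower, adjusted p = 0.0179, limma). The call was lost without control replicate 1 (a fall of 0.56, adjusted p = 0.214, limma), without either TRPM7 shRNA array (adjusted p = 0.108 and 0.0729, limma), with median scaling (adjusted p = 0.0964, limma), with the line fitted alone (adjusted p = 0.0671, limma) and without the intensity trend (adjusted p = 0.34, limma). In SH-EP2 cells the signals were 7.27 and 7.39 (control) and 7.41 and 7.44 (TRPM7 shRNA), a described change of 0.09. LTBP2 was 1.95-fold higher in SH-EP2 than in SH-SY5Y control cells (adjusted p = 0.000995, limma). LTBP1 was detected on SH-EP2 control replicate 2 alone, at 3.65, with control replicate 1 at 3.06, the SH-EP2 TRPM7 shRNA arrays at 2.19 and 1.87, the SH-SY5Y arrays between 1.70 and 2.36, and its other probe detected on no array. LTBP1 was at least 1.15-fold higher in SH-EP2 than in SH-SY5Y control cells, with 1 of the 2 SH-EP2 and 0 of the 2 SH-SY5Y control arrays detected (adjusted p = 0.0272, limma), and did not pass without SH-EP2 control replicate 2 (adjusted p = 0.165, limma) or SH-SY5Y control replicate 2 (adjusted p = 0.237, limma).

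The sizes of these falls in SH-SY5Y cells depended on the background correction too, and with no correction TGFB3 fell by 0.52 and LTBP2 by 0.33, both still past the threshold.

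**Figure D3:**
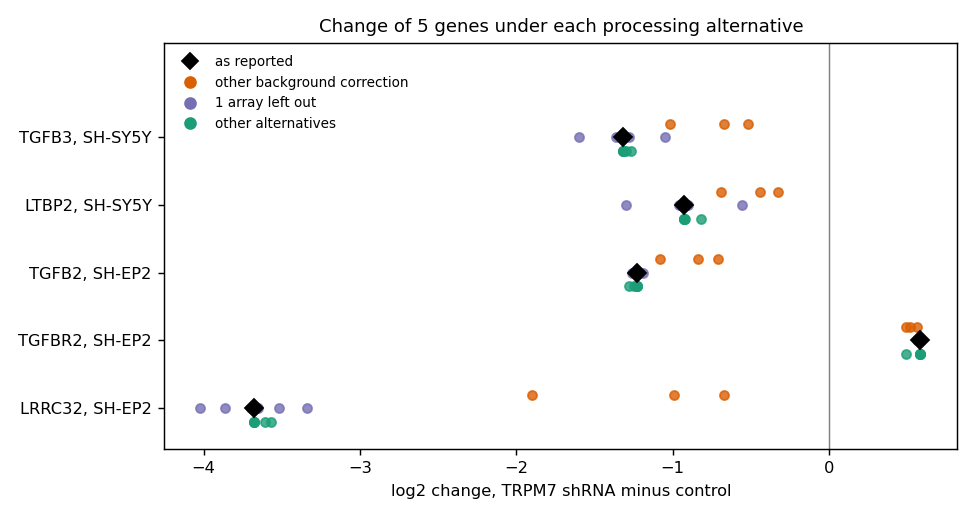
Log2 change with the TRPM7 shRNA (x axis) of 5 gene and line pairs (y axis) as reported (black diamonds) and under other background corrections, with 1 array left out, and under the other alternatives. Every point keeps its direction, and the spread is widest for LRRC32 in SH-EP2 cells, from -4.02 to -0.67.

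TGFB3 and LTBP2, the pair that fell in SH-SY5Y cells, both lie on chromosome 14 in the RefSeq annotation, and TGFB2 on chromosome 1. The 250 bases before the annotated start of these genes are shown because their transcripts differed between groups (RefSeq, GRCh38.p14; 8 of the 9 genes had a window, and LRRC32 is named only). The regions are chr14:75983012-75983261 (TGFB3, minus strand), chr14:74612238-74612487 (LTBP2, minus strand) and chr1:218345086-218345335 (TGFB2, plus strand), written in the direction of transcription. Capitals mark matches on either strand to the SMAD box (CAGAC), the GC box (GGGCGG) and the TATA box (TATAAA).
TGFB3: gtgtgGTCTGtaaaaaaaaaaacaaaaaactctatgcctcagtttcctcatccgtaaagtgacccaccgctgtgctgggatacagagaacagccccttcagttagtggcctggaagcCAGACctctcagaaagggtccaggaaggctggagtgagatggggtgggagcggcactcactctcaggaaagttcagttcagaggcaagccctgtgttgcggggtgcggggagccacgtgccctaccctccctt
LTBP2: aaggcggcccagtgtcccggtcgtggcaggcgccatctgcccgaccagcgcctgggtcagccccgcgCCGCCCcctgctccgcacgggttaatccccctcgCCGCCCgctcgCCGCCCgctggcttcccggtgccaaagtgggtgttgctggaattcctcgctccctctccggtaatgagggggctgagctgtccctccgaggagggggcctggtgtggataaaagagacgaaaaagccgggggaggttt
TGFB2: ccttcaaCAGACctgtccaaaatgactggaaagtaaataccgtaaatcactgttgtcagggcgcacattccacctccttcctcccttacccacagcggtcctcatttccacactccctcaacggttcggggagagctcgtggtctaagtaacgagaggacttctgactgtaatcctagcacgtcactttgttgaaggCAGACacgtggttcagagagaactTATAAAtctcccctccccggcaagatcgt
TGFB3 and TGFB2 each held 2 matches to the SMAD box and LTBP2 held none, against 38.0% of 35116 windows of this length with at least 1. LTBP2 held 3 GC boxes, found in 42.6% of windows, and its GC content was 68.8%, against 54.8% for TGFB3, 50.4% for TGFB2 and a median of 58.0% over all windows. TGFB2 held a TATA box 29 bases before its start, a motif found in 10.7% of windows. None of the 3 windows held the cAMP response element TGACGTCA (1.65% of windows), the AP-1 site TGANTCA (6.57%) or the E-box CAGGTG (17.5%). These are matches of letters, not sites shown to be bound, and a missing match says only that the letters are not in the window.

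Between the control cells of the 2 lines, LRRC32 is a description (5.58-fold higher in SH-EP2), and of the other 8 genes 6 passed, with 5 higher in SH-EP2 and TGFB3 lower. Here 30.1% of all genes passed (14.2% higher and 15.9% lower in SH-EP2), and 62.0% of those detected on both arrays of the brighter group, so that most expressed genes differed between these lines. The count includes LTBP1, which 1 array detected. The control arrays of this comparison are the same ones that enter the TRPM7 shRNA comparisons.

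The rest of the pathway was read from 7 lists with 106 genes, of which 105 had a probe and BHLHE40 had none under a name that matched. In SH-EP2 cells 6 of the 105 rose and 18 fell. Over all genes 3.68% passed in this comparison, with 1.86% lower and 1.83% higher, and 8.24% of those detected on both arrays of the brighter group. In SH-SY5Y cells 8 of the 105 rose and 9 fell, beside the 2.58% of all genes and 5.56% of detected ones given above. The difference between the changes in the 2 lines passed for 13 of the 105, and for 1.8% of all genes. Many of these calls depended on the settings. With median scaling the calls lost in SH-SY5Y cells were FBLN1, ITGAV, ITGB5, PLAT, DCN, BAMBI, ACTA2, CDKN1A and IGFBP3, and without the intensity trend ENG and SNAI2 passed there and ACTA2, DCN and MMP9 in SH-EP2 cells. Among the genes named below, the SH-EP2 calls lost with median scaling were ITGB5, PLAT, BMP1, INHBE, FSTL3, GDF15, SMAD6, TGIF2, CCN2, COL1A1, COL4A1, CDKN1A and IGFBP3. Of the 28 textbook target genes of TGF-beta with a probe, 2 rose and 11 fell in SH-EP2 cells, with a median change of -0.53 against 0.01 over all genes. The number lower was 7 without either control array or without TRPM7 shRNA replicate 2, 6 with median scaling and 1 without the intensity trend. The same 28 gave 5 higher and 2 lower in SH-SY5Y cells, with a median of 0.04. The list was compiled with earlier results of these data known, and SNAI2 and FN1 are also among the mesenchymal markers above.

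In SH-EP2 cells ACTA2, smooth muscle actin, fell from 13.86 ± 0.046 to 12.19 ± 0.077 (mean ± SD, n = 2 each; adjusted p = 6.81e-10, limma), and TAGLN, an actin-binding protein of smooth muscle, fell by 1.05 (adjusted p = 1.64e-05, limma). COL1A2, a chain of type I collagen, fell by 1.56 (adjusted p = 0.00143, limma), COL1A1 by 0.56 and COL4A1 by 0.62. LOX, which cross-links collagen, fell by 1.16 (adjusted p = 0.0045, limma). CCN2 (connective tissue growth factor), a direct target in many cells, fell by 0.79 (adjusted p = 0.0199, limma) and did not pass when any 1 of the 4 SH-EP2 arrays was left out. COL1A1 and LOX did not pass without either control array or without TRPM7 shRNA replicate 2, while ACTA2, TAGLN, COL1A2 and COL4A1 passed with each array left out. TGFBI, another direct target, was at 13.91 ± 0.076 and 13.93 ± 0.032 (SD, n = 2) and SMAD7, the inhibitory SMAD that the pathway induces, changed by -0.15 (adjusted p = 0.816, limma).

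In SH-SY5Y cells ACTA2, TAGLN and LOX went the other way. ACTA2 rose by 1.07 (adjusted p = 2.4e-07, limma) and TAGLN by 0.92 (adjusted p = 7.43e-05, limma), while LOX, undetected in the control, was at least 3.29-fold higher (adjusted p = 8.36e-05, limma). The differences between the lines themselves passed, at -2.73 for ACTA2 (adjusted p = 1.76e-10, limma), -1.97 for TAGLN (adjusted p = 7.3e-07, limma) and -2.90 for LOX (adjusted p = 2.03e-05, limma). SNAI2, a repressor that drives mesenchymal change, fell in both lines, from 7.22 ± 0.098 to 4.45 ± 0.42 in SH-SY5Y cells (SD, n = 2; adjusted p = 1.15e-08, limma) and by 1.39 in SH-EP2 cells (adjusted p = 6.35e-05, limma). The SNAI2 change in SH-SY5Y cells was as small as -0.95 over the alternatives. IGFBP3, an insulin-like growth factor carrier, fell in both lines as well, by 0.78 and 0.75. CDKN1A, the cell cycle inhibitor p21, rose in both by 0.44 and 0.52. ANGPTL4 rose by 1.28 and 1.50 on its brightest probe, and another ANGPTL4 probe detected on all arrays was at -0.28 and -0.23 and did not pass. With 1 array left out, CDKN1A did not pass in SH-SY5Y cells without TRPM7 shRNA replicate 1. ANGPTL4 did not pass there without control replicate 1 or either TRPM7 shRNA array, nor in SH-EP2 cells without TRPM7 shRNA replicate 2. ACTA2, TAGLN, LOX, SNAI2 and IGFBP3 passed in SH-SY5Y cells with each array left out, but TAGLN and LOX did not with no background correction (0.26 and 0.27), nor did TAGLN with the line fitted alone.

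**Figure D4:**
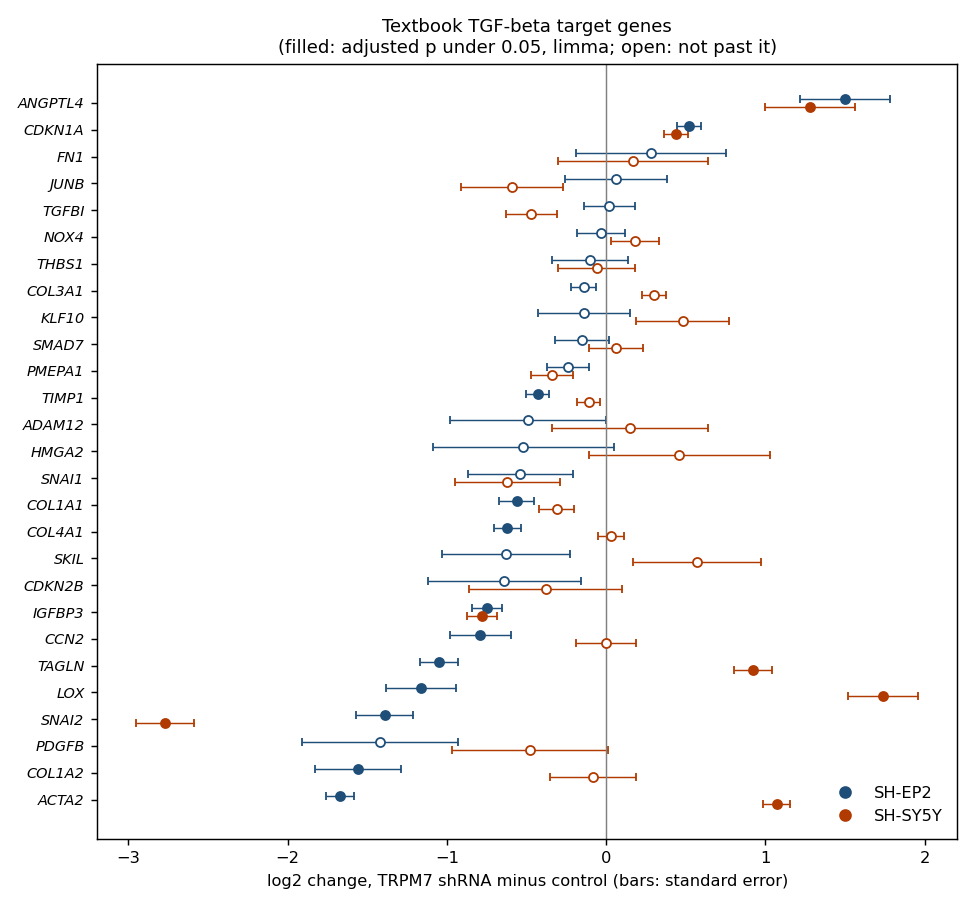
Log2 change with the TRPM7 shRNA (x axis, bars are SE) of 27 textbook TGF-beta target genes (y axis) in SH-EP2 (blue) and SH-SY5Y cells (orange), ordered by the SH-EP2 change, filled where the adjusted p was under 0.05. In SH-EP2 cells 10 filled points of those plotted lie below 0 and 2 above, and ACTA2, TAGLN and LOX lie on opposite sides in the 2 lines.

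Among genes that release or bind TGF-beta outside the cell, the integrin chains ITGAV and ITGB5, which together activate latent TGF-beta, fell in SH-SY5Y cells by 0.61 (adjusted p = 0.00119, limma) and 0.65 (adjusted p = 0.000109, limma). ITGB5 also fell in SH-EP2 cells, by 0.39 (adjusted p = 0.0135, limma), while ITGAV was at -0.12. MMP9, a protease that can cleave latent TGF-beta, rose in SH-EP2 cells from 4.70 ± 0.32 to 6.76 ± 0.052 (SD, n = 2; adjusted p = 0.00453, limma). The MMP9 change was as small as 0.67 over the alternatives. PLAT, tissue plasminogen activator, rose by 0.66 in SH-EP2 cells and fell by 0.68 in SH-SY5Y cells, a difference of 1.34 that passed (adjusted p = 0.00112, limma). BMP1, a protease that processes LTBPs and collagen, fell by 0.49 in SH-EP2 cells on its brightest probe (adjusted p = 0.0337, limma), with -0.61 on a probe detected on 7 arrays (adjusted p = 0.442, limma). In SH-SY5Y cells the brightest BMP1 probe was at -0.33 (adjusted p = 0.259, limma) and the other one at -1.27 (adjusted p = 0.0336, limma). In the list of 18 activators and proteases, 2 rose and 2 fell in SH-EP2 cells, and 0 rose and 3 fell in SH-SY5Y cells. ITGAV and ITGB5 in SH-SY5Y cells and the PLAT difference between the lines passed with each array left out. In SH-EP2 cells BMP1 and PLAT did not pass when any 1 of the 4 arrays of that line was left out, nor did MMP9 and ITGB5 without control replicate 2 or either TRPM7 shRNA array, and PLAT in SH-SY5Y cells did not pass without control replicate 2 or TRPM7 shRNA replicate 1.

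Of 10 extracellular binding proteins and coreceptors, 5 passed in SH-SY5Y cells and 1 in SH-EP2 cells. ENG (endoglin), a TGF-beta coreceptor, fell in SH-SY5Y cells from 5.83 ± 0.036 to 4.12 ± 0.14 (SD, n = 2; adjusted p = 5.44e-07, limma). The ENG change there was as small as -0.38 over the alternatives. VASN, which traps TGF-beta, fell by 1.08 (adjusted p = 3.2e-07, limma), and BGN, a proteoglycan that binds it, by 1.05 (adjusted p = 0.00723, limma) with 1 of the 2 TRPM7 shRNA arrays undetected. The BGN call was lost with no background correction, with normexp and with the line fitted alone, and its change was as small as -0.14 over the alternatives. BAMBI, a decoy receptor, rose by 0.87 (adjusted p = 3.33e-06, limma). DCN (decorin), a proteoglycan that binds TGF-beta, rose by 1.12 in SH-SY5Y cells (adjusted p = 1.14e-05, limma) and fell by 2.24 in SH-EP2 cells (adjusted p = 1.18e-09, limma). A second DCN probe gave 1.14 and -2.88, both past the threshold, and the difference between the lines was -3.35 (adjusted p = 7.19e-10, limma). BGN did not pass without SH-SY5Y control replicate 2, and the other calls of these genes passed with each array left out.

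Of the 13 genes of the latent complex and matrix storage, FBN1 (fibrillin, to which LTBPs attach) was at least 2.56-fold higher with the TRPM7 shRNA in SH-SY5Y cells (adjusted p = 0.00411, limma) and FBLN1 fell by 0.35 there on its brightest probe (adjusted p = 0.0247, limma). The FBN1 call was lost with no background correction, with normexp and with the line fitted alone, and its log2 change was as low as 0.22 over the alternatives. FBLN1 did not pass with the line fitted alone. The other FBLN1 probes detected on all 8 arrays were at 0.01 and -0.29 and did not pass (adjusted p = 0.989 and 0.567, limma). MFAP5, a microfibril protein, fell by 2.07 in SH-EP2 cells (adjusted p = 0.0277, limma), and its change was as small as -0.44 over the alternatives. FBN1 did not pass without SH-SY5Y TRPM7 shRNA replicate 1, FBLN1 did not without SH-SY5Y TRPM7 shRNA replicate 1, SH-SY5Y control replicate 2 or SH-EP2 control replicate 1, and MFAP5 did not when any 1 of the 4 SH-EP2 arrays was left out. Within the cell, SMAD2, SMAD3 and SMAD4, which carry the signal, did not pass in either line, with changes of -0.73, 0.14 and -0.16 in SH-SY5Y cells and -0.22, 0.18 and -0.22 in SH-EP2 cells. Of 18 SMADs and regulators, 0 passed in SH-SY5Y cells by limma, with 5 at an unadjusted p under 0.05. In SH-EP2 cells TGIF2, a SMAD corepressor, rose by 0.71 (adjusted p = 0.00105, limma) and SMAD6, an inhibitory SMAD, fell by 0.75 (adjusted p = 0.00209, limma). Of the 10 other receptors of the family, 0 passed in either line by limma, with 1 in SH-SY5Y and 0 in SH-EP2 cells at an unadjusted p under 0.05. Among 13 activins, related ligands and antagonists, GDF15 rose by 0.65, FSTL3 fell by 0.59 and INHBE fell by 1.16 in SH-EP2 cells (adjusted p = 0.00537, 0.0395 and 0.043, limma), none of which passed when any 1 of the 4 arrays of that line was left out, and in SH-SY5Y cells 0 passed, with 1 at an unadjusted p under 0.05.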

How the data were processed

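GenomeStudio 2011.1 (per the labels) gave the authors an intensity and a detection p-value for each of 47322 probes, and these were deposited without normalization between arrays. The intensity values are on a linear scale, and the handling of background in GenomeStudio is not given in the sources used here. Groups were taken from the sample titles. The study normalized by RMA and names no test. Here the RMA background model, quantile normalization over 8 arrays and log2 were applied, with no filter, and limma 3.58.1 in R 4.3.3 was fitted to 4 groups (eBayes with an intensity trend). The limma fit was run on simulated log2 signals, with changes planted in brighter probes alone. The background correction and the normalization were not part of that run. The members, the pathway and marker lists and the tests were chosen with earlier results of these data known. Named genes were the members, TRPM7, a set of pathway genes (TGFBI, CCN2, SMAD7, SMAD3, SMAD2 and SMAD4), and in each list and comparison up to 6 genes past the threshold by size of change, and COL1A1, COL4A1, CDKN1A and IGFBP3 in SH-EP2 cells and CDKN1A in SH-SY5Y cells were added after their values were seen. Of the target genes, 1 enters the counts and medians and is not reported here. Of the probes, 44052 carry a gene symbol. CCN2, NRROS and LDLRAD4 were matched by older symbols. The fits were repeated with median scaling, with the background handled by normexp (offset 50), by neqc (offset 16) or left in place, without the trend, with a filter (detection on 2 or more arrays), by line, with replicate number as a block, and with each array left out. A block with crossed numbers in SH-SY5Y cells was chosen after seeing the data. The number of arrays limits the precision.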

Additional observations from a re-analysis of the deposited data

Results flagged for a closer look

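The change with the TRPM7 shRNA differed between the lines for 12 of the pathway genes reported here by the interaction term in limma, given here as the SH-EP2 change minus the SH-SY5Y change on the log2 scale. It was below 0 for DCN (-3.35, adjusted p = 7.19e-10), LOX (-2.90, adjusted p = 2.03e-05), ACTA2 (-2.73, adjusted p = 1.76e-10), FBN1 (-2.14, adjusted p = 0.0119), TAGLN (-1.97, adjusted p = 7.3e-07), BAMBI (-1.05, adjusted p = 4.16e-05), FSTL3 (-0.94, adjusted p = 0.0314) and COL4A1 (-0.65, adjusted p = 0.00396). It was above 0 for SNAI2 (1.38, adjusted p = 0.00413), PLAT (1.34, adjusted p = 0.00112), ENG (1.29, adjusted p = 0.00137) and VASN (1.00, adjusted p = 0.000103). Of 16 alternatives, DCN and ACTA2 passed in 16, TAGLN and LOX in 15, PLAT, BAMBI and VASN in 14, COL4A1 in 13, ENG in 12, SNAI2 in 11, FBN1 in 10 and FSTL3 in 7. FSTL3 was lost with the replicate block and without any 1 of the SH-EP2 arrays, and SNAI2, COL4A1 and FBN1 were lost without SH-EP2 control replicate 2. With no background correction SNAI2 was at -0.12 and ENG at 0.02.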

How the results depend on the processing

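Of the 9 genes, 2 passed in SH-SY5Y cells as reported, 1 with the line fitted alone, 1 with median scaling and 0 without the intensity trend, with 0 to 2 when 1 array was left out (0 without SH-SY5Y TRPM7 shRNA replicate 1). The other pathway genes that passed there numbered 17, 8 with median scaling and 2 without the trend. In SH-EP2 cells the other pathway genes that passed went from 24 to 10 with median scaling and 3 without the trend, with 11 to 25 over the arrays left out (11 to 14 with an SH-EP2 array dropped). For the difference between the lines they went from 13 to 20 with no background correction and 2 without the trend, with 8 to 18 over the arrays left out (8 without SH-EP2 control replicate 2). Same-numbered arrays did not deviate together (correlation -0.00442 in SH-EP2 and -0.111 in SH-SY5Y over 14577 probes), so the numbers were not used to pair arrays. The block changed no count of members or pathway genes by over 1.5 times (20 against 24 pathway genes in SH-EP2 cells), and numbers crossed in SH-SY5Y cells gave 3.64% of all genes past the threshold there, against 2.58% as reported and 2.06% with the block as numbered. Without a trend 0.175% of all genes passed in SH-SY5Y and 0.28% in SH-EP2 cells. The sign changed for 3 values without a call, TGFB3 in SH-EP2 cells when replicate 2 of the control or of the TRPM7 shRNA group was dropped (0.18 and 0.01, range -0.21 to 0.18), TGFBR2 in SH-SY5Y cells without control replicate 1 (0.07, range over the arrays left out -0.18 to 0.07) and TGFBR1 between the lines without SH-EP2 control replicate 1 (-0.30, range -0.30 to 1.01). Median scaling moved the median change of all probes by less than 0.1. The cause of these shifts was not tested. Depth in the sense of signal over background limits TGFB1, TGFBR1, LTBP1 and LRRC32 most, as their signals lay at or close to background on most arrays.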
